A study of Homo sapiens with 40 samples.

Results

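The S100 genes described here are S100A4, S100A6, S100A8, S100A9, S100A10, S100A11, S100A12 and S100A13, which encode small calcium-binding proteins. They were selected on their TPM values and group differences in these same libraries, and then taken by symbol from the Ensembl IDs of the deposited table, as 8 of its 60504 genes. Their levels and differences are therefore given as a description. Adjusted p-values are printed for genes outside the set only, and the number of members past the threshold is given once beside the share of all genes. All 8 lie on chromosome 1 of GRCh38 (GENCODE 29), between 151982915 and 153631360. In order along the chromosome they are S100A10 (ENSG00000197747, 151982915 to 151994390), S100A11 (ENSG00000163191, 152032506 to 152047907), S100A9 (ENSG00000163220, 153357854 to 153361027), S100A12 (ENSG00000163221, 153373706 to 153375649), S100A8 (ENSG00000143546, 153390032 to 153391188), S100A6 (ENSG00000197956, 153534599 to 153536244), S100A4 (ENSG00000196154, 153543613 to 153550136) and S100A13 (ENSG00000189171, 153618787 to 153631360), with S100A9 alone on the plus strand. All 8 passed the filter on low values, which asked for at least 1 TPM in at least 7 libraries.

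The RNA came from microglia-like cells derived from the established human embryonic line H9, or from H9 edited by CRISPR/Cas9 to carry homozygous variants associated with Alzheimer's disease. The groups were TREM2-KO (8 libraries), TREM2-R47H (7), SORL1-KO (7), SORL1-A528T (7), CD33 SNP (2), INPP5D SNP (2) and unedited WT (7). R47H and A528T are single amino acid changes. TREM2 is a lipid receptor of microglia and SORL1 a sorting receptor of endosomes. The labels list SORL1 R744X, a stop codon, among the edits, and name the samples SORL1-KO. CD33 SNP and INPP5D SNP carry converted polymorphisms, of CD33, a sialic acid receptor, and of INPP5D, an inositol phosphatase. H9 itself is heterozygous at the INPP5D site and was converted to the A allele on both copies. Every group was treated alike. CD43+ haematopoietic progenitors were collected on day 11 and cultured for 28 days with M-CSF at 25 ng/mL, IL-34 at 100 ng/mL and TGF-beta 1 at 50 ng/mL; in the last 3 days CD200 and CX3CL1 were present at 100 ng/mL each. The labels do not say how many clones stand behind a line, or whether each library is a culture of its own. P-values therefore measure only the spread between libraries of a group, and that spread may be technical. In bulk RNA fewer cells of a type and less RNA per cell cannot be told apart.

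S100 proteins bind calcium through paired EF-hand motifs and then engage other proteins. S100A8, S100A9 and S100A12, the calgranulins, fill the cytosol of neutrophils and classical monocytes, and are released as alarm signals that act on TLR4 and on the receptor AGER; S100A8 and S100A9 pair with each other as calprotectin. S100A10 pairs with annexin A2 at membranes, S100A4 binds non-muscle myosin, S100A11 binds annexins, S100A6 (calcyclin) binds CACYBP, and S100A13 takes part in the export of FGF1 and IL1A, proteins without a secretion signal. In the healthy brain, resident microglia hold little S100A8 and S100A9 RNA, and both are known to increase in activated or infiltrating myeloid cells.

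The libraries carried microglial markers, with CSF1R between 600.33 and 1290.47 TPM and P2RY12 between 10.42 and 81.86 TPM over the 40 libraries, while SALL1, a defining factor of microglia in the brain, stayed at or under 0.47 TPM. TMEM119, another microglial marker, had 1.04–14.6 TPM. The 13 listed microglial markers summed to 4677–7386 TPM in TREM2-R47H (median 5239) and 6230–8981 TPM in TREM2-KO (median 6484), against 6192–7214 TPM in WT (median 6446). TREM2 averaged 35.3 ± 8.39 TPM in TREM2-KO, against 457 ± 120 TPM in WT (SD, n = 8 and 7). SORL1 averaged 16.1 ± 3.00 TPM in SORL1-KO, against 33.3 ± 9.74 TPM in WT (SD, n = 7 each). Of 15 neutrophil markers, MPO, ELANE, PRTN3, CTSG, CEACAM8, CXCR1 and LCN2 averaged under 0.1 TPM in every group, while MMP9 had 114–1901 TPM and RETN 10.3–324 TPM over the 40 libraries. MMP9, a protease that macrophages also make, averaged 955 ± 700 TPM in TREM2-R47H, against 677 ± 256 TPM in WT (SD, n = 7 each), and was not called (limma adjusted p = 0.998). The 14 stromal and endothelial markers summed to 134–276 TPM in TREM2-R47H, 194–465 TPM in TREM2-KO, 146–425 TPM in SORL1-KO and 185–422 TPM in SORL1-A528T, against 190–3232 TPM in WT. Much of the sum in these 4 edited groups was a single gene, PECAM1, with means of 144, 265, 215 and 232 TPM in that order. PECAM1 had 124–446 TPM over the 40 libraries, so the sums do not measure stromal RNA alone. TREM2-KO replicate 8, SORL1-KO replicate 7 and SORL1-A528T replicate 7 stood apart from their groups over all kept genes, with a root mean square residual of 0.554–0.602 (log2 scale) against at most 0.488 in any other library. Replicates 5 and 6 were close to each other in every large group, with a root mean square difference of 0.372–0.405 over the kept genes, against medians of 0.502–0.546 for the other pairs of a group. They were the closest pair in 4 of the 5 groups, and in TREM2-R47H another pair was closer, at 0.367 against 0.374.

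The promoter windows of the calgranulins and of S100A11 are printed here, and no link between their sequence and expression was tested. CpG dinucleotides were scarcer in the calgranulin windows than in those of the other genes, with S100A4 close to them. Each window runs from 250 bases before to 50 bases after the RefSeq start (GRCh38.p14). In capitals are matches to motifs of factors known in myeloid promoters, searched on both strands: TTNNGCAA (C/EBP), GAGGAA (PU.1, encoded by SPI1), TGANTCA (AP-1), TTCNNNGAA (STAT) and TATAAA (the TATA box). S100A8 spans chr1:153391139-153391438 on the minus strand, S100A9 chr1:153357604-153357903 on the plus strand, S100A12 chr1:153375572-153375871 on the minus strand and S100A11, shown for contrast, chr1:152036955-152037254 on the minus strand.
S100A8: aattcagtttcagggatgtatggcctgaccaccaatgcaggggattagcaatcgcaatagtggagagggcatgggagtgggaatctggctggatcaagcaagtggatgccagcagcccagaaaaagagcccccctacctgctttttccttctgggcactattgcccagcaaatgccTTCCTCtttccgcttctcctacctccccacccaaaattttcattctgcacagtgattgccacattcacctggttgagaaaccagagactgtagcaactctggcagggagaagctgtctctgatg
S100A9: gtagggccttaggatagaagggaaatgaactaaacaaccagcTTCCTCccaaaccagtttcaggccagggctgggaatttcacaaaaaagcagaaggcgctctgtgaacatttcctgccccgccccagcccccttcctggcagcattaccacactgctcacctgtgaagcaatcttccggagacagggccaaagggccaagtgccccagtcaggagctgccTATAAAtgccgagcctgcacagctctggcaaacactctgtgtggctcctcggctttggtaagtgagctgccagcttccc
S100A12: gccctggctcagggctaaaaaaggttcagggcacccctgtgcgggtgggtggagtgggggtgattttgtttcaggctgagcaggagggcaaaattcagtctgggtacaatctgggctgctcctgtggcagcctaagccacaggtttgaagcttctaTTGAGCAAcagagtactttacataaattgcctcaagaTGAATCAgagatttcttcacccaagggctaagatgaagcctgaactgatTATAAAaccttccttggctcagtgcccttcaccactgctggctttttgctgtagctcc
S100A11: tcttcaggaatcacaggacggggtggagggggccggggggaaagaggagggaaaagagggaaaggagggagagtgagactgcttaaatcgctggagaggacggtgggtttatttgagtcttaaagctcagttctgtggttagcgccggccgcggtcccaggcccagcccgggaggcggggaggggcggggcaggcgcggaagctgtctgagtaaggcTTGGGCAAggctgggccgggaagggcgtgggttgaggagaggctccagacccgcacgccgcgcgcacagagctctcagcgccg

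CpG dinucleotides were scarce in the windows of S100A8, S100A9 and S100A12, with observed-to-expected ratios of 0.1, 0.22 and 0.05, and in that of S100A4, at 0.29. The ratio was 0.78 for S100A11, 0.84 for S100A10, 0.85 for S100A13 and 0.87 for S100A6, and the median of 35116 RefSeq windows of the same length was 0.58. GAGGAA stood 74 bases before the start of S100A8 and 208 bases before that of S100A9, both on the strand opposite to the gene, so that the printed letters read TTCCTC, and 27.9% of all windows hold it. TTNNGCAA stood 94 bases before the start of S100A12 and 33 before that of S100A11 (10.5% of windows), and TGANTCA 57 bases before that of S100A12 (7.71%). TATAAA stood 29 bases before the start of S100A9, 31 before that of S100A4 and 8 before that of S100A12, whose RefSeq start lies 28 bases from the GENCODE one (11.5% of windows). TTCNNNGAA was in none of the 8 windows (7.66% of all). A match is a description of the letters in these windows. For S100A4, S100A11 and S100A13 the nearest RefSeq start lies 4330, 10903 and 3001 bases from the GENCODE gene start.

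The 8 genes ranged from weak to among the most abundant transcripts. S100A4 had 1061–2427 TPM over the 40 libraries and S100A11 828–1099 TPM, medians that exceed those of 99.4% and 98.9% of the 14855 kept genes. Medians of the others were 206 TPM for S100A9, 97.4 for S100A10, 55.0 for S100A8, 10.1 for S100A13, 5.87 for S100A6 and 3.62 for S100A12. S100A11 was the steadiest, with the highest library 1.3 times the lowest. S100A8 and S100A9 differed 150.3 and 119.4 times between their extreme libraries, and S100A6 115.3 times. S100A4 and S100A11 together held 50.8% to 96.4% of the summed TPM of the 8 genes (median 87.0%), with the lowest share in WT replicate 4, where S100A9 reached 1915 TPM.

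**Figure D1:**
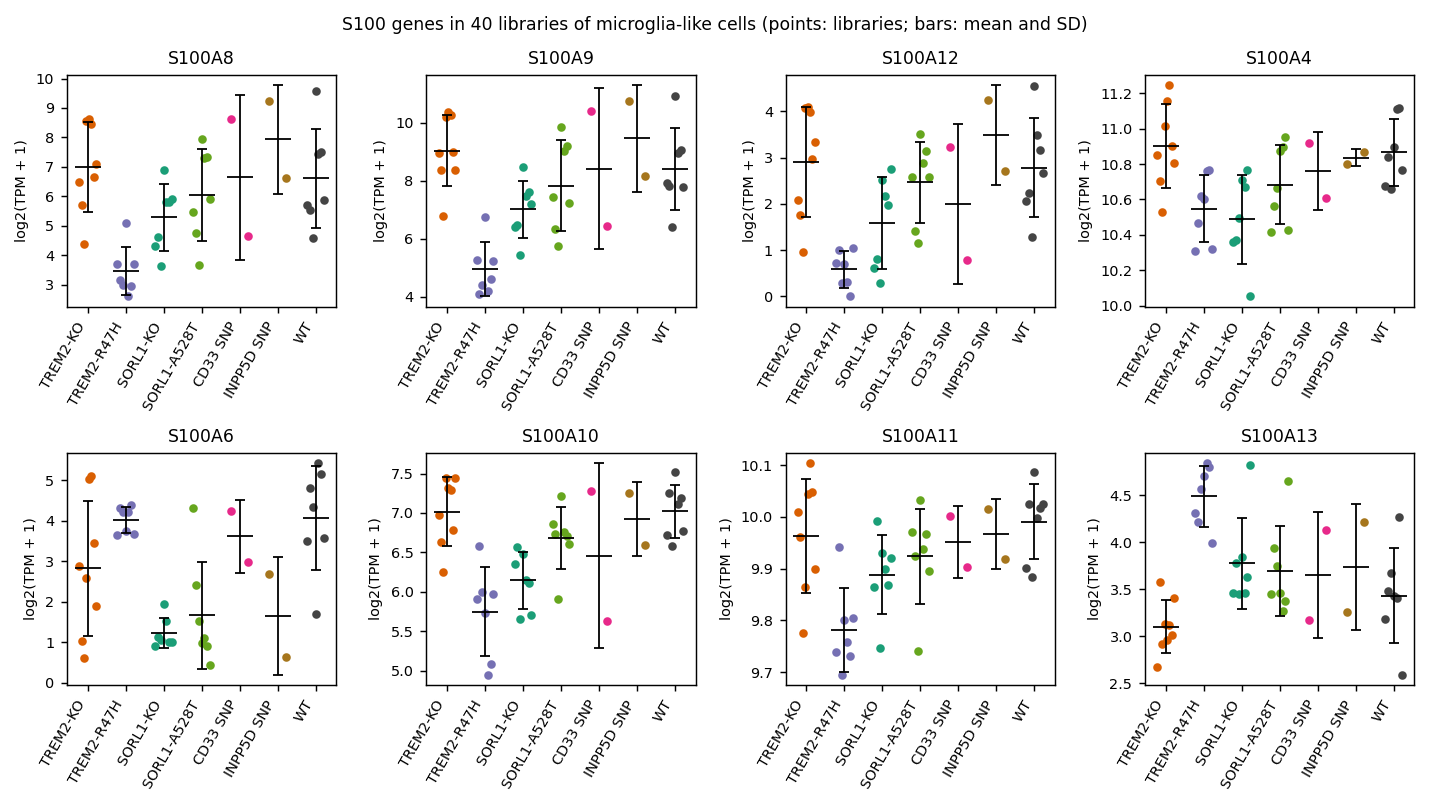
Each S100 gene in 40 libraries, on a log2(TPM + 1) axis that differs between panels; points are libraries, bars the group mean and SD, groups run along the x axis with WT at the right. The TREM2-R47H points are the lowest group for S100A8, S100A9 and S100A12 and the highest for S100A13, and SORL1-KO is the lowest for S100A6.

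The calgranulins were lowest in TREM2-R47H. S100A9 had 16.04–107 TPM there (median 23.3), 109–1326 in TREM2-KO (median 501), 42.5–355 in SORL1-KO (median 146), 52.8–928 in SORL1-A528T (median 170), 1337 and 86.1 in the CD33 SNP libraries and 1727 and 285 in the INPP5D SNP libraries, against 82.6–1915 in WT (median 238). Every TREM2-R47H library lay below every TREM2-KO library, whereas the TREM2-R47H and WT ranges touched through replicate 4 of TREM2-R47H and replicate 3 of WT. The means were 36.9 ± 32.2 TPM in TREM2-R47H, 685 ± 476 in TREM2-KO, 155 ± 104 in SORL1-KO and 354 ± 330 in SORL1-A528T, against 530 ± 632 in WT (SD, n = 7, 8, 7, 7 and 7). Ordered by mean, S100A9 ran INPP5D SNP, CD33 SNP, TREM2-KO, WT, SORL1-A528T, SORL1-KO and TREM2-R47H, and no neighbours in that order differed by more than their SDs. The same held for the order of groups of each of the other 7 genes.

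S100A8 followed the same order of groups. Its range was 5.10–33.0 TPM in TREM2-R47H (median 7.93), 20.1–398 in TREM2-KO (median 118), 11.4–118 in SORL1-KO (median 54.7) and 11.7–244 in SORL1-A528T (median 59.1), against 23.3–767 in WT (median 58.4). The CD33 SNP libraries had 394 and 24.4 TPM and the INPP5D SNP libraries 602 and 97.8 TPM. S100A12, which mice lack, was the weakest, at 0.00–1.06 TPM in TREM2-R47H (median 0.62), 0.95–15.98 in TREM2-KO (median 7.93), 0.23–5.70 in SORL1-KO (median 2.93) and 1.21–10.4 in SORL1-A528T (median 4.98), against 1.42–22.5 in WT (median 5.37). All 7 TREM2-R47H libraries of S100A12 lay below all 7 WT libraries, and 1 of them is listed at 0. The S100A12 values were 8.35 and 0.72 TPM in CD33 SNP and 18.03 and 5.57 TPM in INPP5D SNP.

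On the log2(TPM + 1) scale, which understates the change of low genes, the TREM2-R47H difference from WT was -3.47 ± 0.69 for S100A9, -3.15 ± 0.75 for S100A8 and -2.20 ± 0.51 for S100A12 (SE of the fit of 40 libraries). For each of the 3 genes 7 of 7 TREM2-R47H libraries lay below the WT mean. The same 3 differences were -2.73, -2.21 and -1.47 in a fit that took the stromal marker score as a covariate. TREM2-KO, like WT, lay above TREM2-R47H, by 4.10 ± 0.67 for S100A9, 3.53 ± 0.73 for S100A8 and 2.32 ± 0.49 for S100A12, with 8 of 8 libraries above the TREM2-R47H mean. TREM2-KO differed from WT by 0.63 ± 0.67, 0.39 ± 0.73 and 0.12 ± 0.49 in S100A9, S100A8 and S100A12, each less than its SE. That SE does not take the replicate number into account. Between libraries of the same number TREM2-KO lay above WT in 6, 5 and 4 of 7, with median differences of 1.06, 0.77 and 0.02. With the stromal score as a covariate the S100A9 and S100A8 differences were 1.44 and 1.42. SORL1-KO differed from WT by -1.39 ± 0.69, -1.33 ± 0.75 and -1.19 ± 0.51, with 7 of 7 libraries below the WT mean for each gene and overlapping ranges. With the stromal score as a covariate these were -0.49, -0.18 and -0.30. SORL1-A528T differed from WT by -0.58 ± 0.69 in S100A9 and -0.56 ± 0.75 in S100A8, and by 0.25 and 0.50 with the covariate. The comparisons against WT share its 7 libraries. In the 2-library groups a single library set the value: the CD33 SNP difference in S100A9 was -1.96 without replicate 1 and 1.98 without replicate 2.

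The ratio between the calgranulins varied far less than their levels. S100A9 stood 2.02 to 6.35 times above S100A8 in TPM (median 3.39 over 40 libraries), in a data set where S100A9 itself varied 119.4-fold. The group medians of that ratio were 3.08 in TREM2-R47H, 4.23 in TREM2-KO, 3.50 in SORL1-KO and 3.60 in SORL1-A528T, against 3.55 in WT. Pearson's r of log2(TPM + 1) between S100A8 and S100A9 was 0.98 over the 40 libraries and 0.98 again after group means were taken out, and between S100A8 and S100A12 0.96 and 0.94. Some members outside the calgranulins ran with them too. With S100A8, r was 0.81 for S100A10, 0.76 for S100A11 and 0.66 for S100A4. After group means were taken out, these were 0.68, 0.60 and 0.54. For S100A6 and S100A13, r with S100A8 was -0.02 and -0.52 over the 40 libraries. These points share lines, culture and TPM scaling, so the values are descriptions.

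**Figure D2:**
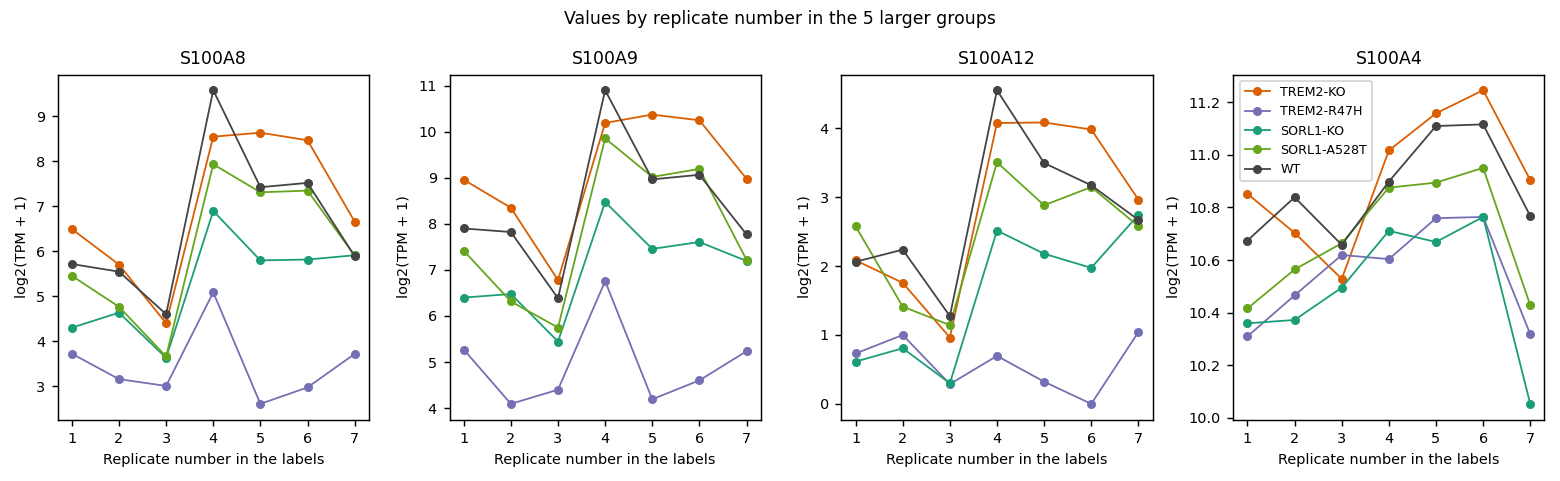
S100A8, S100A9, S100A12 and S100A4 by the replicate number in the labels (x axis), 1 line per group, log2(TPM + 1) on a y axis that differs between panels. Number 4 is high and number 3 low for the calgranulins in most groups, and S100A4 is highest at number 6 in all 5 groups.

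Much of the calgranulin spread within groups ran with the replicate number. S100A9 was lowest in replicate 3 of TREM2-KO (109 TPM), SORL1-KO (42.5 TPM), SORL1-A528T (52.8 TPM) and WT (82.6 TPM), and highest in replicate 4 of TREM2-R47H (107 TPM), SORL1-KO (355 TPM), SORL1-A528T (928 TPM) and WT (1915 TPM). The exceptions were TREM2-KO, highest in replicate 5 (1326 TPM), and TREM2-R47H, lowest in replicate 2 (16.04 TPM). The labels do not say what a number stands for. Over replicates 1 to 7 of the 5 large groups (35 libraries), group took 60.3% of the sum of squares of S100A9 and the number 31.8%, which left 7.8%. For S100A8 the shares were 47.9%, 40.5% and 11.6%, and for S100A12 48.1%, 34.9% and 17.1%. Medians over all kept genes were 15.2% for group, 29.9% for the number and 49.5% for the remainder. Within numbers, TREM2-R47H lay below WT in 7 of 7 for S100A9, with differences from -1.99 in replicate 3 to -4.78 in replicate 5 (log2 scale). TREM2-KO lay above WT in 6 of 7 numbers for S100A9, the exception being replicate 4.

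**Figure D3:**
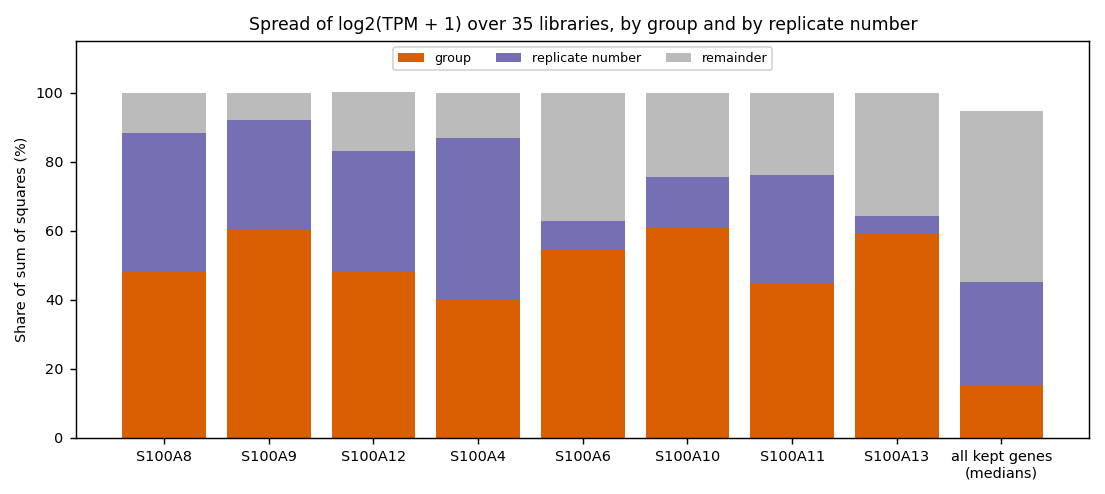
Share of the sum of squares of log2(TPM + 1) (y axis, percent) taken by group, replicate number and remainder for each S100 gene over 35 libraries; the last bar stacks 3 medians over all kept genes, taken separately, and so ends under 100. S100A9 has the smallest remainder at 7.8%, S100A4 the largest number share at 46.7%, and S100A6 and S100A13 number shares of 8.4% and 5.1%.

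S100A10, the partner of annexin A2, was lower in TREM2-R47H and SORL1-KO. It had 29.9–95.1 TPM in TREM2-R47H (median 59.3), 49.5–93.9 in SORL1-KO (median 69.7), 74.9–173 in TREM2-KO (median 141) and 58.9–148 in SORL1-A528T (median 105), against 94.7–182 in WT (median 137). Every SORL1-KO library lay below every WT library, and TREM2-R47H touched the WT range through a single library, replicate 2 at 95.1 TPM. The differences from WT were -1.27 ± 0.24 in TREM2-R47H, -0.88 ± 0.24 in SORL1-KO, -0.34 ± 0.24 in SORL1-A528T and -0.00 ± 0.23 in TREM2-KO. The CD33 SNP libraries had 155 and 48.3 TPM and the INPP5D SNP libraries 151 and 95.4 TPM. ANXA2 itself averaged 297 ± 70.1 TPM in TREM2-R47H, against 382 ± 78.0 TPM in WT (SD, n = 7 each), a difference of -0.38 that was not called (limma adjusted p = 0.105) without the replicate number as a block and was called with it. The ratio of ANXA2 to S100A10 in TPM was 4.06–7.01 in TREM2-R47H and 4.41–5.67 in SORL1-KO, against 2.55–3.38 in WT, so both ranges lay above that of WT. In TREM2-KO it was 1.77–3.87. The ratio draws on S100A10 values known when the gene was chosen and is a description.

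S100A4 and S100A11, the most abundant of the 8, differed least between groups. S100A4 had 1268–1738 TPM in TREM2-R47H (median 1555), 1061–1738 in SORL1-KO (median 1442), 1365–1978 in SORL1-A528T (median 1621) and 1476–2427 in TREM2-KO (median 1881), against 1614–2218 in WT (median 1830). Ranges overlapped throughout. The differences from WT were -0.32 ± 0.11 in TREM2-R47H and -0.38 ± 0.11 in SORL1-KO, with 7 of 7 libraries of each below the WT mean, and -0.14 and -0.16 with the stromal score as a covariate. S100A4 peaked in replicate 6 of all 5 large groups, and the number took 46.7% of its sum of squares, the largest such share of the 8 genes. S100A11 had 828–983 TPM in TREM2-R47H (median 865), 876–1099 in TREM2-KO (median 1013), 858–1018 in SORL1-KO (median 954) and 855–1046 in SORL1-A528T (median 980), against 943–1086 in WT (median 1035), with overlapping ranges. In CD33 SNP S100A4 was at 1935 and 1559 TPM and S100A11 at 1024 and 956 TPM, and in INPP5D SNP at 1782 and 1868 TPM and at 1034 and 967 TPM. Its TREM2-R47H difference from WT was -0.21 ± 0.05, or 0.865 times in TPM + 1. S100A11 was lowest in replicate 3 of all 5 large groups. The ratio of S100A4 to S100A11 was 1.10–2.22 over the 40 libraries. S100A4 shares 2044 bases with S100A3 on the same strand, and S100A3 had at most 0.48 TPM.

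S100A6, whose product binds CACYBP and annexins, was low in both SORL1 lines and in INPP5D SNP, and did not follow the calgranulins. It had 0.87–2.82 TPM in SORL1-KO (median 1.08), 0.36–18.9 in SORL1-A528T (median 1.14), 0.52–33.5 in TREM2-KO (median 5.66) and 11.47–19.9 in TREM2-R47H (median 17.4), against 2.23–41.5 in WT (median 19.1). The CD33 SNP libraries had 17.9 and 6.86 TPM and the INPP5D SNP libraries 5.40 and 0.54 TPM. In SORL1-KO 6 of 7 libraries lay below every WT library; the exception, replicate 4 at 2.82 TPM, exceeded a single WT library, replicate 4 at 2.23 TPM. SORL1-A528T held 1 high library, replicate 1 at 18.9 TPM, with the other 6 at 0.36 to 4.29 TPM. TREM2-R47H was the tightest group, with its highest library 1.74 times its lowest, against 64.4 times in TREM2-KO and 18.61 times in WT. The differences from WT were -2.84 ± 0.59 in SORL1-KO, -2.40 ± 0.59 in SORL1-A528T, -1.25 ± 0.58 in TREM2-KO and -0.04 ± 0.59 in TREM2-R47H. In the 2 libraries of INPP5D SNP the difference was -2.41 ± 0.89, and in those of CD33 SNP -0.46 ± 0.89. The SORL1-KO and SORL1-A528T differences were -2.80 and -2.20 without the 3 libraries that stood apart, and -2.03 and -1.66 with the stromal score as a covariate. The 5 epithelial markers summed to 26.8–41.2 TPM in SORL1-KO, 33.2–61.03 in SORL1-A528T and 33.6–53.9 in TREM2-R47H, against 31.9–110 in WT. KRT18, which is among these markers, was called lower in SORL1-KO than in WT (-0.85, limma adjusted p = 0.0148). That call was lost with the stromal score as a covariate (limma adjusted p = 0.461). The part of these markers in the S100A6 differences was not tested. Pearson's r of S100A6 with S100A9 was -0.04 over the 40 libraries, and the number took 8.4% of its sum of squares. CACYBP averaged 121 ± 27.2 TPM in SORL1-KO, against 134 ± 9.95 TPM in WT (SD, n = 7 each), and was not called (limma adjusted p = 0.771).

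S100A13 was highest in TREM2-R47H, where the calgranulins were lowest. It had 14.9–27.6 TPM in TREM2-R47H (median 22.6), 5.39–10.9 in TREM2-KO (median 7.38), 9.90–27.2 in SORL1-KO (median 11.3) and 8.64–24.1 in SORL1-A528T (median 9.98), against 5.03–18.2 in WT (median 9.78). TREM2-R47H and TREM2-KO did not overlap, and TREM2-R47H overlapped WT through WT replicate 6 at 18.2 TPM. The difference was 1.05 ± 0.23 in TREM2-R47H from WT, with 7 of 7 libraries above the WT mean, and -1.39 ± 0.22 in TREM2-KO from TREM2-R47H. In SORL1-KO and SORL1-A528T the highest value was in replicate 7, at 27.2 and 24.1 TPM, the library of each group that stood apart; without the 3 libraries the differences from WT were 0.17 and 0.11, against 0.34 and 0.26 with them. Pearson's r of S100A13 with S100A9, S100A8 and S100A12 was -0.62, -0.52 and -0.50 over the 40 libraries, and -0.22, -0.13 and -0.09 after group means were taken out, a description over libraries that share lines and scaling. In INPP5D SNP the differences from WT were 0.30 ± 0.34 for S100A13 and 1.05 ± 1.03 for S100A9 (SE), and they came from different libraries. S100A9 was above the WT mean in replicate 1 alone, and S100A13 in replicate 2 alone. The CD33 SNP libraries had 8.03 and 16.5 TPM of S100A13 and the INPP5D SNP libraries 8.58 and 17.5 TPM.

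**Figure D4:**
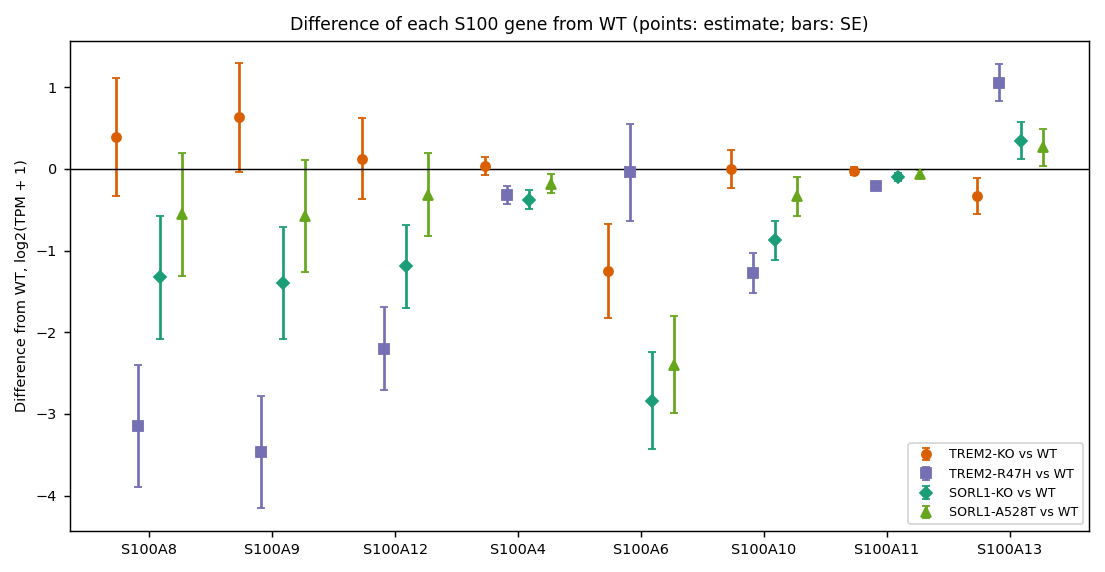
Differences from WT of the 8 genes in the 4 large edited groups (points, log2 of TPM + 1; bars, SE of the fit). TREM2-R47H lies at -3.47 for S100A9 and at 1.05 for S100A13, and the SORL1 lines lie at -2.84 and -2.40 for S100A6.

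Read against all genes, the counts were as follows. Between TREM2-R47H and WT 11.4% of the 14855 kept genes were called (limma on log2(TPM + 1), Benjamini-Hochberg adjusted p below 0.05), and 6 of the 8 S100 genes were, S100A13 higher (2.63% of genes) and S100A8, S100A9, S100A10, S100A11 and S100A12 lower (8.77% of genes). Between TREM2-KO and TREM2-R47H 21.3% of genes and 7 of the 8 were called, S100A13 lower (6.58% of genes) and 6 higher (14.7%), with S100A6 the exception. For SORL1-KO and WT the shares were 1.09% of genes and 1 of the 8, S100A6, which was lower (0.835% of genes, with 0.256% higher). None of the 8 was called in TREM2-KO against WT (1.61% of genes; 0.283% higher, 1.33% lower), SORL1-A528T against WT (0.0471%; 0.0269% higher, 0.0202% lower), CD33 SNP against WT (0%), INPP5D SNP against WT (0.0337%; 0.00673% higher, 0.0269% lower) or SORL1-KO against SORL1-A528T (0.0942%; 0.0337% higher, 0.0606% lower). At an unadjusted limma p below 0.05 the members numbered 1, 1, 0, 1 and 1 in that order. All kept genes below that threshold numbered 1573, 884, 621, 1087 and 333 of 14855. With median-ratio scaling the calls over all genes split differently, at 4.06% higher and 5.58% lower in TREM2-R47H against WT, and at 9.84% higher and 9.42% lower in TREM2-KO against TREM2-R47H. Under that scaling 5 members were called in each of these comparisons, against 6 and 7 without the scaling, and S100A11 was among those that lost the call. The 6 calls in TREM2-R47H against WT were 3 with the stromal score as a covariate, where 1.66% of genes were called higher and 4.75% lower. The call in SORL1-KO against WT was lost with that covariate and with replicates 5 and 6 averaged, where 18 and 35 genes were called. In SORL1-KO against SORL1-A528T, where the replicate numbers were taken to pair libraries, S100A10 and S100A4 were lower in SORL1-KO in 7 of 7 pairs. The block in these 2 groups alone called these 2, with 0.168% of genes higher and 0.33% lower. Because the genes were chosen with these values known, nothing is read from the counts. The median difference of the 8 genes was -0.79 in TREM2-R47H against WT, where that of all kept genes was -0.06, and -1.03 in SORL1-KO against WT, where that of all kept genes was -0.03.

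Of 12 further S100 genes in the table, 5 passed the filter, and S100B and S100A1 were called. S100B, known best from astrocytes and encoded on chromosome 21 (46598962 to 46605208, minus strand), was abundant here, at 161–672 TPM over the 40 libraries. It had 161–297 TPM in TREM2-R47H (median 193), against 344–639 TPM in WT (median 381). No TREM2-R47H library reached the lowest WT library, and the difference was -0.96 ± 0.23 (SE; limma adjusted p = 0.00394). With the stromal score as a covariate it was -0.78 and no longer called (limma adjusted p = 0.0555). TREM2-KO averaged 392 ± 175 TPM of S100B, against 212 ± 43.0 TPM in TREM2-R47H (SD, n = 8 and 7). All 8 TREM2-KO libraries lay above the TREM2-R47H mean, and the difference of 0.80 ± 0.22 passed the test (SE; limma adjusted p = 0.00785). Like S100A8 and S100A9 it was highest in replicate 4 of TREM2-R47H, SORL1-KO and WT, and its r with S100A8 was 0.79 over the 40 libraries and 0.68 after group means were taken out.

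S100A1, a calcium sensor best known from heart muscle, lies opposite S100A13 and shares 3435 bases with it. It averaged 5.08 ± 2.28 TPM in TREM2-R47H, against 1.54 ± 0.960 TPM in WT (SD, n = 7 each), a difference of 1.27 ± 0.33 (SE; limma adjusted p = 0.00861). TREM2-KO had 0.724 ± 0.449 TPM, below TREM2-R47H by a difference of -1.78 ± 0.32 (SE; limma adjusted p = 7.62e-05), with no overlap. The library kit keeps strand, but the strand setting of the counting is not stated, so reads of S100A1 and S100A13 cannot be told apart where the genes overlap. A noncoding transcript on the same strand as S100A13, ENSG00000271853, shares 5029 bases with it and was higher in TREM2-R47H than in WT, by 1.15 ± 0.24 (SE; limma adjusted p = 0.00108). These 2 were the only called genes, in any of the 8 comparisons, among 10 kept non-members within the stretch of chromosome 1 from 151882915 to 153731360. S100A2, S100A16 and S100Z passed the filter at low levels and were not called in any of the 8 comparisons. S100A7, S100A7A, S100A14, S100G and S100P had at most 0.61 TPM in any library, and S100A3 and S100A5 at most 1.67 TPM; S100A7 and S100A7A are near-identical copies, so their values are uncertain.

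**Figure D5:**
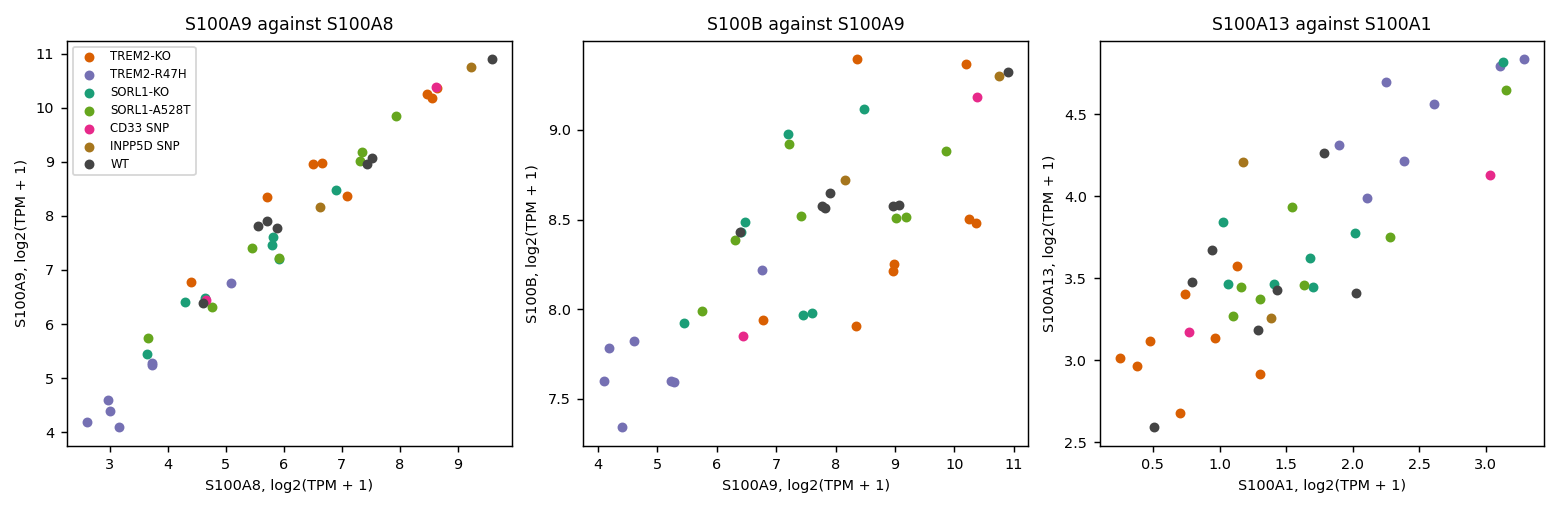
Pairs of S100 genes over 40 libraries, log2(TPM + 1) on both axes, 1 point per library coloured by group. S100A9 and S100A8 lie along a line (r = 0.98), S100B and S100A9 more loosely (r = 0.75), and S100A13 and S100A1, which overlap on opposite strands, are high in the same libraries (r = 0.84).

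Counts of called genes in this and the following lists stand against 8.77% of all genes lower and 2.63% higher in TREM2-R47H against WT, and 14.7% higher and 6.58% lower in TREM2-KO against TREM2-R47H (5.58%, 4.06%, 9.84% and 9.42% with median-ratio scaling). With the replicate number as a block in all libraries these shares were 14.7%, 4.85%, 17% and 8.1%. Released S100 proteins act on several receptors. Of 8 listed receptors and co-receptors 7 passed the filter, and in TREM2-R47H against WT only CD36, a scavenger receptor, was called. It averaged 45.1 ± 11.46 TPM in TREM2-R47H and 101 ± 12.9 TPM in WT (SD, n = 7 each), without overlap (-1.18 ± 0.29; limma adjusted p = 0.00627), and with the replicate number as a block CD14, a co-receptor of TLR4, was called lower too. TLR4, AGER and BSG differed by -0.07, -0.20 and 0.06 in that comparison (limma adjusted p = 0.903, 0.656 and 0.64). In TREM2-KO, CD36 averaged 113 ± 69.7 TPM and CD14 101 ± 66.8 TPM (SD, n = 8), against 45.1 ± 11.46 and 40.3 ± 24.7 TPM in TREM2-R47H (n = 7), and both were called higher (limma adjusted p = 0.00235 and 0.0403). CD14 lost its call without the 3 libraries that stood apart (limma adjusted p = 0.0636). No receptor was called by limma in TREM2-KO or SORL1-KO against WT. There 0 and 1 had an unadjusted limma p below 0.05, beside 1573 and 1607 of all 14855 kept genes.

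Among 20 kept intracellular partners, 5 were lower and none higher in TREM2-R47H against WT. ANXA6, an annexin of endosomes and the plasma membrane, had 9.30 ± 2.19 TPM in TREM2-R47H, against 51.4 ± 16.9 TPM in WT (SD, n = 7 each), a difference of -2.32 ± 0.26 without overlap (SE; limma adjusted p = 7.15e-08). MYH9, the heavy chain of non-muscle myosin that S100A4 binds, averaged 260 ± 9.50 TPM in TREM2-R47H and 325 ± 23.4 TPM in WT (SD, n = 7 each; difference -0.31, limma adjusted p = 3.46e-06). ANXA5 fell by 0.26 and IL1A, a cytokine whose export involves S100A13, fell by 0.75 (limma adjusted p = 0.00109 and 0.0048), both without overlap, and the fifth was the protease gene CTSB. IL1A was not called with the stromal score as a covariate (limma adjusted p = 0.0532). In TREM2-KO against TREM2-R47H 5 partners were higher, ANXA6 by 2.43 and MYH9 by 0.28 among them (limma adjusted p = 4.87e-09 and 2.82e-06), and 1 was lower, AHNAK, a scaffold held by annexin A2 and S100A10. IL1A was the only partner called in SORL1-KO against WT (-0.70; limma adjusted p = 0.0462), and leaving out the 3 libraries that stood apart ended that call (limma adjusted p = 0.0742). The median over the list was -0.13 in TREM2-R47H against WT, where that of all kept genes was -0.06.

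Calprotectin is known to carry arachidonic acid to the phagocyte NADPH oxidase, several subunits of which were lower in TREM2-R47H than in WT, with none higher. NCF1, a cytosolic organizer, had 111 ± 21.4 TPM in TREM2-R47H, against 357 ± 43.7 TPM in WT (SD, n = 7 each), a difference of -1.69 ± 0.13 (SE; limma adjusted p = 5.5e-11). NCF4, another cytosolic subunit, fell by 0.92 and CYBA, the small membrane subunit, fell by 0.36 (limma adjusted p = 2.08e-05 and 0.000128). TREM2-KO exceeded TREM2-R47H in all 3, by 1.82, 1.21 and 0.39 for NCF1, NCF4 and CYBA (limma adjusted p = 8.11e-13, 3.62e-08 and 7.91e-06). In SORL1-KO NCF1 was the single subunit called, with a mean of 210 ± 25.6 TPM, where WT had 357 ± 43.7 TPM (-0.76 ± 0.13; limma adjusted p = 0.00157), and it was not called with the stromal score as a covariate (limma adjusted p = 0.105). NCF1 has near-identical copies, so its level is uncertain.

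Of 10 kept factors known to act on calgranulin promoters, none was called by limma in TREM2-R47H against WT without the replicate number as a block. There 3 had an unadjusted limma p below 0.05, beside 3506 of all 14855 kept genes. With the block 4 were called, all lower: CEBPB, JUN, SPI1 and STAT3. CEBPB, a C/EBP factor, averaged 209 ± 54.0 TPM in TREM2-R47H and 310 ± 128 TPM in WT (SD, n = 7 each; difference -0.54, limma adjusted p = 0.114 without the block). In TREM2-KO against TREM2-R47H FOS, KLF4 and JUNB were lower, by differences of -1.37, -0.66 and -0.43 (limma adjusted p = 0.00102, 0.00353 and 0.00429), while SPI1, which encodes PU.1, was higher by 0.17 (limma adjusted p = 0.0303). The SPI1 call was lost without the 3 libraries that stood apart (limma adjusted p = 0.0723) and with median-ratio scaling (limma adjusted p = 0.275).

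Markers of classical monocytes, where calgranulins are abundant, were in part high and low in the same groups. The 16 markers summed to 213–500 TPM in TREM2-R47H and 478–1231 TPM in TREM2-KO, against 410–1201 TPM in WT. Of 15 kept markers, PLAC8 and THBS1 were lower in TREM2-R47H than in WT, by differences of -1.58 and -1.14 (limma adjusted p = 0.00118 and 0.0152), and MNDA was higher by 0.54 (limma adjusted p = 0.0372). THBS1 was at -0.46 and not called with the stromal score as a covariate (limma adjusted p = 0.378), and MNDA was not called in 6 of the alternatives, among them both other pseudocounts (limma adjusted p = 0.0899 and 0.0605). With the replicate number as a block in all libraries 6 were lower and 1 higher. Between TREM2-KO and TREM2-R47H 7 were higher and none lower, led by PLAC8 at 1.78, CSTA at 1.19, CCR2 at 0.72 and LYZ at 1.03 (limma adjusted p = 7.9e-05, 0.00118, 0.00589 and 0.0161). In TREM2-KO against WT MNDA alone was called (0.98 higher; limma adjusted p = 0.000556), and with the block 3 were higher and 2 lower. Levels differed widely within the list. VCAN and FCN1, which define classical monocytes, had 0.17–27.8 and 0.04–94.1 TPM over the 40 libraries (medians 1.02 and 1.27), while PLAC8, LYZ and CD14 had medians of 194, 150 and 63.9 TPM. PLAC8 or LYZ had the highest mean of the list in every group, so the sums rest largely on a few genes. Medians of CCR2, MNDA and THBS1 were 0.64, 0.54 and 0.45 TPM, so their differences are those of genes mostly under 1 TPM. Of 4 kept neutrophil markers RETN was lower in TREM2-R47H than in WT (-1.68; limma adjusted p = 0.0223), and in TREM2-KO against TREM2-R47H RETN, CXCR2 and FCGR3B were higher by 2.12, 0.77 and 0.94 (limma adjusted p = 0.00139, 0.00696 and 0.0222). The RETN call against WT was lost with the stromal score as a covariate and without a filter (limma adjusted p = 0.082 and 0.0532). FCGR3B has a near-identical copy and a median of 0.65 TPM. It was not called with a pseudocount of 5 TPM or without a filter (limma adjusted p = 0.0697 and 0.0516). The part of such cells in the calgranulin differences was not tested.

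Of 12 kept microglial markers, GPR34 was higher and AIF1 and C1QA lower in TREM2-R47H than in WT (limma adjusted p = 0.0019, 0.0198 and 0.0337). With median-ratio scaling AIF1 and C1QA were not called (limma adjusted p = 0.0787 and 0.0625). With the block in all libraries 1 was higher and 5 lower. In TREM2-KO against TREM2-R47H 5 were higher, and 2 were lower, GPR34 and TREM2 itself. Of 10 kept stromal and endothelial markers, 5 were lower in TREM2-R47H than in WT, 3 in TREM2-KO and 3 in SORL1-KO, and none was higher. Between TREM2-KO and TREM2-R47H PECAM1 alone was called, higher in TREM2-KO by 0.82 (limma adjusted p = 0.0071). LUM and DCN, matrix proteoglycans, were lower by differences of -2.37 and -2.61 in TREM2-R47H (limma adjusted p = 0.0105 and 0.0275), -2.48 and -2.98 in TREM2-KO (limma adjusted p = 0.0254 and 0.0368) and -2.60 and -3.06 in SORL1-KO (limma adjusted p = 0.0325 and 0.0473). With the block in all libraries the counts were 8, 7 and 8, all lower. With 2 groups alone none of these LUM and DCN calls held (limma adjusted p = 0.0793 and 0.115 in TREM2-R47H, 0.193 and 0.202 in TREM2-KO, 0.186 and 0.198 in SORL1-KO), and with the block in 2 groups alone those of SORL1-KO did not (limma adjusted p = 0.184 and 0.171). The highest summed level among the large groups, 3232 TPM, was in a WT library. Their part in the S100 differences from WT was not tested beyond the fits with the score as a covariate, and between TREM2-KO and TREM2-R47H that fit gave 4.17 for S100A9, against 4.10 without it.

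The genes outside the set whose values ran most closely with a member over the 40 libraries were found by Pearson's r of log2(TPM + 1), as a description over libraries that share lines, cultures and scaling. IRF2BPL, a transcriptional regulator, came first for S100A9 and S100A8, at 0.97 and 0.95. DNM2, PRKCD, ANXA6 and SERPINA1 followed for S100A9, at 0.93 to 0.94. SERPINA1, SOCS3, IL1RAP and FLOT1 followed for S100A8, at 0.91 to 0.94. S100A12 ran closest to SOCS3, an inhibitor of cytokine signalling, at 0.92, ahead of IRF2BPL, SERPINA1, ANXA6 and IL1RAP. With group means taken out, r of IRF2BPL with S100A9 was 0.94. For S100A10 the closest were IMPDH1 at 0.89, then TNIP1, FZD5, MARCKSL1 and IGSF3, and for S100A11 AGTRAP at 0.87, then TSPAN15, SLC16A6, SERPINB8 and KLHL2. SLC12A8, at 0.85, led ARHGAP9, RGS3, LST1 and NRSN2 for S100A4. MFGE8, a bridging protein for apoptotic cells, led for S100A13 at 0.85, followed by S100A1, JAM2, PLPP1 and JUP. S100A6 had no close match: BCL7C came first at 0.59, and the others were ENTPD5, ZNF283, CETN3 and GORASP2.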

How the data were processed

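The authors deposited TPM values, 1 column for each of 40 libraries and 60504 genes. Per the submitters' processing notes they used cutadapt 1.18, STAR 2.7, RSEM 1.3.1 and DESeq2; they name no genome build or annotation. Columns summed to 999999.15–1000000.76. TPM keeps no counts, so the depth behind each value is unknown. The labels put the mean at 45.13 M reads (39.2–64.6 M), and precision comes from the spread between libraries. Groups came from the labels.

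Differences were fitted with limma 3.58.1 (R 4.3.3, trended and robust variance) on log2(TPM + 1), in 1 fit of all 40 libraries with 7 group means, after a filter that left 14855 genes (1 TPM or more in 7 or more libraries). P-values are two-sided and Benjamini-Hochberg adjusted over these genes, with calls below 0.05. The procedure was tested on simulated data. For the stromal score, log2(TPM + 1) was averaged over the stromal and endothelial markers of each library, PECAM1 among them. Positions are from GENCODE 29 by Ensembl ID; promoter windows are from RefSeq.

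The members and gene lists were chosen with earlier results of these data known. The text names all S100 genes, TREM2 and SORL1, up to 4 called genes of each main list with the lowest adjusted p, the 5 genes most like each member and the called neighbours on chromosome 1. Genes named beyond this rule, to set beside a result or to complete a count, were chosen after their values were seen: P2RY12, CSF1R, MMP9, SALL1, TMEM119, ANXA2, CACYBP, TLR4, AGER, BSG, CEBPB, CTSB, AHNAK, VCAN, FCN1, JUN, STAT3 and the neutrophil markers near 0. Some listed genes are not reported here.

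Same-numbered libraries deviated together (residual correlation above 0.1 for every shared number) for TREM2-KO against WT (lowest 0.114), TREM2-R47H against WT (lowest 0.14) and SORL1-KO against SORL1-A528T (lowest 0.306), so there the numbers were taken to pair libraries. In that order 3, 4 and 3 of 7 libraries correlated best with the library of their own number. Such counts were 4, 3 and 2 in comparisons not taken as pairs, so the choice rests on the lowest correlation alone. Alternatives were pseudocounts of 0.1 and 5 TPM, no filter, median-ratio scaling, 2 groups alone, the number as a block, the stromal score as a covariate and leaving out each CD33 SNP and INPP5D SNP library. Chosen after seeing the data were the omission of 3 libraries that stood apart, the average of replicates 5 and 6, and the block in 2 groups alone.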

Additional observations from a re-analysis of the deposited data

Results flagged for a closer look

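Of 65 group values of S100 genes screened for a library far from the rest of its group, 2 were picked out, and chance alone would pick about 1 in 20. S100A13 in SORL1-KO replicate 7 was at 27.2 TPM, against 9.90–13.3 TPM in the other 6 libraries. The gap to the nearest of them was 0.712 of the group's range on the log2(TPM + 1) scale. The same library stood apart over all kept genes. S100B in WT replicate 4 was at 639 TPM, against 344–400 TPM in the other 6 libraries, a gap of 0.756 of the group's range on that scale. S100A8, S100A9 and S100A12 were also highest in that library.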

How the results depend on the processing

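No called result reversed its direction under any alternative run. Of 672 refitted S100 differences 655 moved by less than the SD of single libraries about their group means and 17 by more. Among the 17, S100A12 in TREM2-R47H against WT was -3.51 with a pseudocount of 0.1 TPM and -1.05 with 5 TPM, and CD33 SNP differences of S100A8 and S100A9 were -1.95 and -1.96 without replicate 1 and 2.01 and 1.98 without replicate 2. That SD is wide for the calgranulins, so the 655 say little about them. The S100A8 and S100A9 differences of SORL1-A528T from WT changed sign with the stromal score and still count among the 655. Of 660 refits of the called listed genes 102 lost the call.

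Listed genes called in TREM2-KO against WT numbered 5, and 3 with a pseudocount of 0.1, 2 without a filter, 2 with the 2 groups alone, 3 with the stromal score, 3 without the 3 libraries that stood apart and 2 with replicates 5 and 6 averaged. In TREM2-R47H against WT they numbered 25, and 14 with the stromal score. In SORL1-KO against WT they numbered 8, and 3 without a filter, 2 with the 2 groups alone, 1 with the stromal score, 4 without the 3 libraries and 2 with replicates 5 and 6 averaged. In INPP5D SNP against WT they numbered 0, 3 with the 2 groups alone, and 0 to 1 when a replicate was left out. No listed gene was called in CD33 SNP or SORL1-A528T against WT. There 8 and 20 of 94 had an unadjusted limma p below 0.05, beside 621 and 884 of all 14855 kept genes. S100 members called in SORL1-KO against WT numbered 1, and 2 with the 2 groups alone, 0 with the stromal score and 0 with replicates 5 and 6 averaged. All kept genes called were 162, 52, 18 and 35 in that order. In TREM2-R47H against WT the members called numbered 6, and 3 with the stromal score, beside 1693 and 953 of all kept genes. The cause of these changes was not tested.

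With the replicate number as a block in all libraries, listed genes called were 17 in TREM2-KO, 43 in TREM2-R47H, 18 in SORL1-KO, 7 in SORL1-A528T and 21 in INPP5D SNP, each against WT, and 2 in SORL1-KO against SORL1-A528T, where the fit without the block called 1. With the block in 2 groups alone they were 18, 40 and 4 in TREM2-KO, TREM2-R47H and SORL1-KO against WT, and 4 in SORL1-KO against SORL1-A528T. S100 members called with the block in all libraries were 5 in SORL1-KO and 1 in SORL1-A528T against WT, where 735 and 127 of all 14855 kept genes were called. With the block in 2 groups alone they were 3 in SORL1-KO against WT and 2 in SORL1-KO against SORL1-A528T, where 97 and 74 genes were called. In SORL1-KO, SORL1-A528T, CD33 SNP and INPP5D SNP against WT, and in TREM2-KO against TREM2-R47H, the libraries shared only a number, with lowest correlations of -0.105, -0.082, -0.025, 0.021 and 0.092; of 7 libraries 4, 3 and 2 correlated best with their own number in SORL1-KO, SORL1-A528T and TREM2-KO against TREM2-R47H. Median-ratio scaling shifted the median of all kept genes by less than 0.1 in every comparison, and changed the split of calls as given beside the counts. TPM without counts limits what can be said of S100A12 and of other genes near 1 TPM.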
